A study of Mus musculus with 2 samples.

Results

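The stefins are small intracellular inhibitors of cysteine proteases, and mice carry a tandem cluster of stefin A genes. This account covers 8 genes of the cystatin superfamily, 8 of the 32285 genes counted in each library. They were chosen by symbol. Stfa1, Stfa2, Stfa2l1, Stfa3, Cstdc4 and Cstdc5 belong to the stefin A cluster, and Cst3 and Cstb are broadly expressed relatives set beside them. The stefin A members were picked because their UMIs in these same libraries came from neutrophil-like cells, so their cell type pattern is given as a description and not as a test.

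The samples are mouse cells of the central nervous system, labelled as microglia-like, whose 3′ transcript ends were counted by droplet sequencing (10x Chromium, chemistry v3.1). Per the labels, the Het library is Cx3cr1-/+ and the WT library is Cx3cr1+/+, with 1 library each and replicate 1 in both. Cx3cr1 encodes the fractalkine receptor. The samples of both genotypes carry the same protocol, in which GFP+ and GFP- cells of the Lin- pool of Cx3cr1-/+ mice were injected into a vein of CD45.1 recipients conditioned with busulfan (4 doses of 25 mg/kg), so the donor cells behind the WT library are not stated separately. The recipients' own cells were not separated from donor cells in the labels used here, nor were age, sex, time after transplantation or the number of animals given. With 1 library per genotype there is no replicate and no test. Every ratio below compares these 2 libraries, and every interval is at 95% and covers counting error only, not the spread among cells or animals.

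Stefins bind the active-site cleft of papain-like proteases such as cathepsins B, L, H and S, and act on enzyme that has leaked into the cytosol. Cystatin B, the product of Cstb, is a stefin of most cell types, whereas cystatin C, the product of Cst3, carries a signal peptide, is secreted and is abundant in microglia. The stefin A genes of mice are known from neutrophils and from skin, and humans have a single stefin A gene, CSTA.

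The stefin A members lie in 1 cluster on chromosome 16, with other stefin A genes between some of them. In the GRCm38 annotation (GENCODE M21) the 6 members span 298.582 kb of chromosome 16, from base 36156811 to 36455392. All 6 are annotated as protein coding, in the order Stfa2l1, Cstdc4, Stfa1, Cstdc5, Stfa2 and Stfa3, with the first 3 on the plus strand and the last 3 on the minus strand. Csta1, Csta2, Csta3 and Cstdc6 of the same cluster are counted in the files but are not among the members, and with them the cluster spans 335.447 kb. Cst3 lies on chromosome 2 (148871722 to 148875692, minus strand) and Cstb on chromosome 10 (78425669 to 78427622, plus strand). Over the 15 pairs of the 6 members, RefSeq promoters (300 bases, 250 before the annotated start and 50 after it) were 75.5% to 96.4% identical over the aligned bases, with a median of 83.8%. The M21 transcripts were 71.4% to 97.1% identical, with Stfa1 and Cstdc5 the most alike pair at both.

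4 promoters are shown, those of Cstdc4 and Stfa2l1, which gave the most UMIs, and those of Stfa1 and Cstdc5, the most alike pair. They come from RefSeq (GRCm38.p6) and run 5′ to 3′ on the strand of the gene: Stfa2l1 chr16:36156561-36156860 (plus), Cstdc4 chr16:36183962-36184261 (plus), Stfa1 chr16:36276898-36277197 (plus) and Cstdc5 chr16:36367521-36367820 (minus). Capitals mark matches to 3 searched motifs.
Stfa2l1: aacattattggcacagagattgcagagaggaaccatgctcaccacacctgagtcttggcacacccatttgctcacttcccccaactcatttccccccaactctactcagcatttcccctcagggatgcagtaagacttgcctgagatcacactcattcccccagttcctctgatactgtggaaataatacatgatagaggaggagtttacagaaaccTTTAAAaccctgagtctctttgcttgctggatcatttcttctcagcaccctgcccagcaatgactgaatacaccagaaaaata
Cstdc4: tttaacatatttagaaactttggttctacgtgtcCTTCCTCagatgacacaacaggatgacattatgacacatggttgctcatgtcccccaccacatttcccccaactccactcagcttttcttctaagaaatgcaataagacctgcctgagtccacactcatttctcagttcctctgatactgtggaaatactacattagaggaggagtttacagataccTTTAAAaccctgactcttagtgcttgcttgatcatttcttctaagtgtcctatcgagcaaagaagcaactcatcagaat
Stfa1: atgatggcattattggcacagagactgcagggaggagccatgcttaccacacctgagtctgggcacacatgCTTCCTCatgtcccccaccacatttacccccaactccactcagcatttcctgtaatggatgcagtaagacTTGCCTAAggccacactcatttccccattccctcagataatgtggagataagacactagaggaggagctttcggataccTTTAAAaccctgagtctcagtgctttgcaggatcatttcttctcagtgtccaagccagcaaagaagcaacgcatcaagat
Cstdc5: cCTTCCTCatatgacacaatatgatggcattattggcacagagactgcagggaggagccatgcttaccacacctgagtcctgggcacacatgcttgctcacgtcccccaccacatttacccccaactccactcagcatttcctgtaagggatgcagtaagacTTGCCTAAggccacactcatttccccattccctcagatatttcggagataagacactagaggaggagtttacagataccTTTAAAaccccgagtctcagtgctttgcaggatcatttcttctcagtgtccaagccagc
The motifs were searched on both strands. TTTAAA stood in the promoters of all 6 stefin A members and in 13.2% of the 32851 promoters of the table. This motif was chosen after the sequences were seen. It began at position -33 in Stfa2l1, -29 in Cstdc4, -30 in Stfa1, -29 in Stfa2, -31 in Stfa3 and -9 in Cstdc5, counted from the annotated start. The TATA box letters TATAAA stood in 0 of the 6, against 13.6% of all promoters. A PU.1-type motif (GAGGAAG, read as CTTCCTC on the other strand) stood in 3 of 6 (Cstdc4, Stfa1 and Cstdc5), against 13.6% of all. A C/EBP-type motif (TTNNGCAA, here TTGCCTAA on the other strand) stood in 2 of 6 (Stfa1 and Cstdc5), against 10.8% of all. PU.1 and the C/EBP proteins are transcription factors of myeloid cells. A match describes letters only. The Cst3 and Csta2 promoters held none of the 4 motifs. Csta1 held TTTAAA at -230 and a PU.1-type match, and Csta3 held TTTAAA at -77 and a C/EBP-type match. The motifs are thus not particular to the 6 members.

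Because the genes are alike, a read can match more than 1 of them and be assigned to another gene or left out. In the last 400 bases of the M21 transcripts, where a 3′ kit samples, 28.3% of the 90-base windows of Cstdc5 occurred also in Stfa1 or Cstdc6, and 12.5% of those of Stfa1 occurred also in Cstdc5. For Stfa2 and Stfa2l1 the share was 2.57%, each with the other, and for Cstdc4, Stfa3, Cst3 and Cstb it was 0%. The windows were taken from the longest transcript of each gene and searched in all transcripts. Of the windows of Csta2, 16.1% occurred also in Cstdc4, so Cstdc4 is not free of shared sequence. The levels of Stfa1 and Cstdc5, and the split between them, are therefore the least certain.

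The libraries held 17828344 UMIs (unique molecular identifiers, 1 per captured transcript) in 1837 barcodes for Het and 22062823 in 2359 barcodes for WT. Filters kept 1489 and 1949 cells with a median of 6880 and 6637 UMIs. Cx3cr1 itself, the gene named in the genotypes, had 632 CPM in all kept Het cells and 727 CPM in all kept WT cells, and 1643 and 1787 CPM in microglia-like cells (CPM are UMIs per 1000000 UMIs of the same cells). These levels do not separate the labels, and whether the counted 3′ end lies outside the replaced part of the gene is not given in the sources used here. Clustering without the 8 members gave 15 clusters, of which 2 stayed unnamed. Neutrophil-like cells were 331 of the Het cells (22.2%) and 472 of the WT cells (24.2%). They fell into a cluster led by Asprv1, Ifitm1, Acod1, G0s2, Retnlg and Il1b, called the Retnlg-Il1b cluster here (160 Het and 284 WT cells), and a cluster led by Camp, Ngp, Ltf and Lcn2, the Camp-Ngp cluster (171 Het and 188 WT cells). The Camp-Ngp cluster thus held most neutrophil-like cells of Het and the Retnlg-Il1b cluster most of WT. The summed 15 neutrophil markers, all detected, stood at 240598 CPM in neutrophil-like cells and 1992 CPM in all other cells of Het, and at 180176 and 2085 CPM in WT. The label of the samples is microglia-like, and 259 Het and 372 WT cells carried that name in the clustering. The same barcode was listed in both libraries for 339 barcodes, of which 255 Het and 198 WT cells were kept and 47 and 44 were neutrophil-like.

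Most neutrophil-like barcodes also carried microglial transcripts. All 12 microglia markers had UMIs in neutrophil-like cells, with a summed level of 8618 CPM in Het and 8569 CPM in WT. At least 3 UMIs of C1qa, C1qb and C1qc, complement genes of macrophages and microglia, were found in 256 of the 331 Het and 364 of the 472 WT neutrophil-like barcodes. These barcodes were deep, with a median of 19752.5 UMIs in Het and 16981 in WT, against 5879 and 4999 UMIs in the 75 Het and 108 WT barcodes with fewer C1q UMIs. In the barcodes with fewer, the summed microglia markers stood at 259 CPM in Het and 280.04 CPM in WT. Leading genes of other classes were found too, in the finer clustering of the neutrophil-like cells given below. Sub-cluster 0 (152 cells) shared H2-Eb1, H2-Aa and Cd74 with the dendritic cell-like cluster. Sub-cluster 2 (155 cells, 68.4% with 3 or more C1q UMIs) shared Adgre4, Ace and Cd300e with the patrolling monocyte-like cluster. Whether barcodes with fewer C1q UMIs are free of such transcripts was not tested. Whether the deep barcodes hold 2 cells was not tested, and no doublet caller was run.

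The 6 stefin A members were found almost wholly in neutrophil-like cells. Their summed level there was 907 CPM in Het (884 to 930) and 883 CPM in WT (864 to 902), and no other class passed 31.7 CPM in either library. The kit counts 1 tag per transcript molecule, so CPM are not divided by gene length. They can be set side by side between genes, except that reads shared by alike stefins can be lost or moved to another gene. A lower summed level can come from fewer expressing cells or from less RNA per cell, which a sum cannot tell apart. Neutrophil-like cells held 98.6% of the stefin UMIs of Het (6019 of 6103) and 98.2% of those of WT (8080 of 8230), although they held 39.0% and 42.9% of all UMIs. With each library clustered alone the WT share was 53.8%, as 283 WT cells were then named neutrophil-like in place of 472. Each member taken alone had between 97.0% and 100% of its UMIs there in both libraries. Among the other classes, microglia-like cells had 12.6 CPM in Het and 31.7 CPM in WT, and neighbouring classes overlapped in the range of the 2 libraries down to NK cell-like cells, with 1 UMI in each library. Mast cell or basophil-like cells had 0 UMIs. Of the 4 further genes of the cluster, Csta2 had 29 UMIs in Het and 68 in WT in neutrophil-like cells, Csta3 had 18 and 9, Cstdc6 had 0 and 2, and Csta1 had 0 in both.

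**Figure D1:**
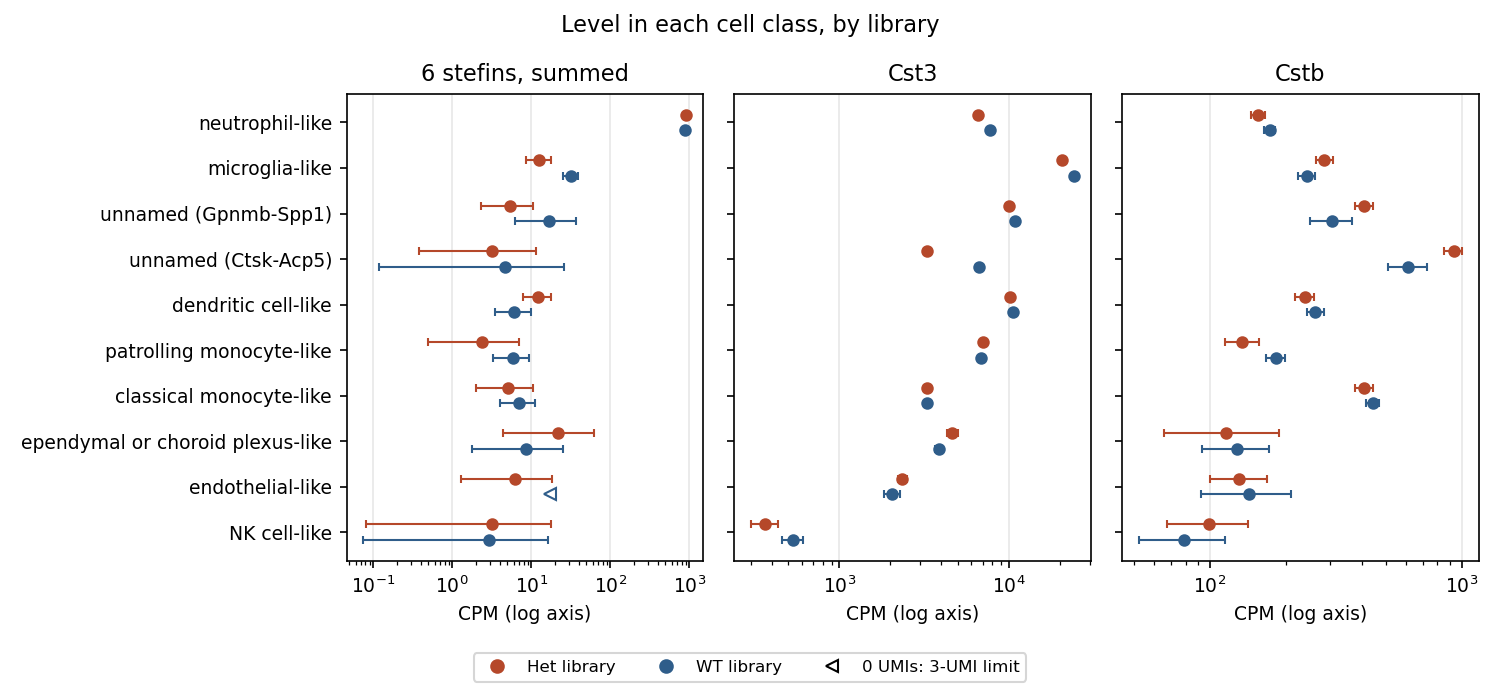
Level in CPM on a log axis of the 6 summed stefin A members, Cst3 and Cstb in each cell class with 20 or more cells in both libraries, Het library above WT, with exact Poisson 95% intervals; the open triangle marks a class with 0 UMIs at the limit of 3 UMIs. The stefins stand apart in neutrophil-like cells (907 CPM in Het, 883 CPM in WT), whereas Cst3 is highest in microglia-like cells and Cstb in the unnamed Ctsk-Acp5 cluster. Of that cluster's 147 cells, 105 carried barcodes listed in both libraries.

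The few stefin UMIs outside neutrophil-like cells were set against neutrophil RNA. Per 1000 UMIs of S100a8 and S100a9, the most abundant neutrophil transcripts, neutrophil-like cells had 4.84 stefin UMIs in Het and 6.16 in WT, and all other cells together had 5.28 (4.21 to 6.55) in Het and 7.39 (6.25 to 8.67) in WT. Among neutrophil-like cells the ratio itself varied widely. It was 17.2 in the cluster led by Asprv1, Ifitm1, Retnlg and Il1b and 1.75 in the cluster led by Camp and Ngp in Het, and 15.2 and 2.63 in WT. In barcodes with fewer than 3 C1q UMIs it was 7.72 in Het and 5.15 in WT. Some other classes lay above the value of neutrophil-like cells of their library: microglia-like cells of WT at 10.1 (8.13 to 12.5, 90 UMIs in 16 of 372 cells), dendritic cell-like cells of Het at 8.90 (5.75 to 13.2) and the unnamed Gpnmb-Spp1 cluster of WT at 22.8 (8.30 to 50.3, 6 UMIs). Below it lay classical monocyte-like cells of WT at 3.09 (1.80 to 4.96) and the unnamed Ctsk-Acp5 cluster of Het at 0.971 (0.117 to 3.51, 2 UMIs). Microglia-like cells of Het had 30 UMIs in 8 of 259 cells and a ratio of 5.50 (3.71 to 7.86). No expression outside neutrophil-like cells was read from these UMIs.

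Cst3 and Cstb ran through every class. Cst3 was highest in microglia-like cells, at 20590 CPM in Het and 24273 CPM in WT, and next in the unnamed Gpnmb-Spp1 cluster (10021 and 10916 CPM) and dendritic cell-like cells (10187 and 10574 CPM), whose ranges overlapped. Neutrophil-like cells (6549 CPM in Het and 7792 CPM in WT) did not differ from patrolling monocyte-like cells (7025 and 6812 CPM) beyond the spread of the 2 libraries. Classical monocyte-like cells had 3270 CPM in Het and 3281 CPM in WT, and NK cell-like cells (363 and 529 CPM) overlapped with B cell-like cells (608 and 331 CPM, from 13 and 8 cells) at the low end. Among the 12 clusters with at least 20 cells in each library, the highest level of Cst3 was 87.6-fold the lowest in Het and 74.7-fold in WT. The highest was the Ltc4s-Sparc microglia-like cluster, at 31799 CPM in Het and 39544 CPM in WT.

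Cstb varied less between clusters than Cst3. It was highest in the unnamed cluster led by the osteoclast genes Ctsk and Acp5 (926 CPM in Het and 611 CPM in WT), then in classical monocyte-like cells (409 and 443 CPM). Of the 147 cells of the Ctsk-Acp5 cluster, 105 carried barcodes listed in both libraries. Their median was 1602 UMIs over all 147 cells, and Elane, Mpo and Aldoc were also among the leading genes. Neutrophil-like cells had 155 CPM in Het and 173 CPM in WT, and NK cell-like cells 99.6 and 79.0 CPM. The highest of the 12 clusters, which was the Ctsk-Acp5 cluster, was 9.30-fold the lowest in Het and 7.74-fold in WT.

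The Cst3 level of neutrophil-like barcodes moved with the microglial transcripts. In barcodes with fewer than 3 C1q UMIs, Cst3 had 1344 CPM in Het and 1950 CPM in WT, against 7153 and 8412 CPM in barcodes with 3 or more. Cstb differed less, at 119 CPM in Het and 161 CPM in WT, against 159 and 174 CPM. The summed stefins went the other way, at 2640 CPM in Het and 1613 CPM in WT in barcodes with fewer C1q UMIs, against 706 and 805 CPM. This was not so in the Camp-Ngp cluster taken alone, whose values are given below. Stfa3, with few UMIs, was lower in the barcodes with fewer C1q UMIs. These C1q-poor barcodes held 4.06% of all Het UMIs and 29.9% of its stefin UMIs, and 4.11% and 17.2% in WT.

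A stefin UMI was seen in 55.3% of Het and 65.7% of WT neutrophil-like cells, at median depths of 15360 and 13251.5 UMIs, against 3.13% (1 of 32) and 1.69% (1 of 59) in NK cell-like cells, lymphocytes not known for stefin A, at 7280 and 4811 UMIs. After thinning each cell to 2000 UMIs, which left out 35 Het and 39 WT neutrophil-like cells, the shares were 39.5% (117 of 296) and 49.9% (216 of 433). In NK cell-like cells, with 7 and 8 left out, 1 of 25 Het cells (4.00%) and 0 of 51 WT cells had one, and a count of 0 allows a share of cells with a UMI at that depth of up to 5.88% (3 of 51 cells), with an exact upper bound of 6.98%. Cst3 was present in 91.9% of thinned neutrophil-like cells of Het and 95.4% of WT, and Cstb in 26.7% and 25.4%. Thinned NK cell-like cells had Cst3 in 44.0% and 43.1%, and how much of that is free RNA was not tested.

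Within neutrophil-like cells the members were higher in the Retnlg-Il1b cluster than in the Camp-Ngp cluster. Camp, Ngp and Ltf encode proteins of secondary granules, which neutrophils fill while they mature in the marrow, and Retnlg, Cxcr2 and Il1b mark later or activated cells. The label of these stefins as genes of mature neutrophils was set against the stage lists. The secondary granule list (Camp, Ngp, Ltf, Lcn2, Cd177) stood at 2801 CPM in the Retnlg-Il1b cluster and 67058 CPM in the Camp-Ngp cluster of Het, and at 2018 and 53093 CPM in WT. The mature list of 8 genes was 1.95-fold higher in the Retnlg-Il1b cluster in Het and 1.33-fold in WT, but its members Mmp8 and Mmp9 were at 1.01 and 1.03-fold in Het and at 0.778 and 0.696-fold in WT. The activated list of 6 genes was 3.01-fold and 2.43-fold higher. The clusters were built from these genes, so the values describe the clusters. They carry the label in part, since both clusters express the mature list, and the 2 clusters are called by their leading genes here.

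The summed stefins had 1859 CPM in the Retnlg-Il1b cluster and 402 CPM in the Camp-Ngp cluster of Het, a ratio of 4.62. In WT they had 1274 and 521 CPM, a ratio of 2.45. All 6 members were beyond 1.5-fold higher in the Retnlg-Il1b cluster in both libraries, where 30.7% of 9694 genes in Het and 25% of 10283 genes in WT were, and 0 were beyond 1.5-fold lower, where 6.91% and 5.47% were. Nothing is read from this count, since the stefins were chosen for this contrast. Cstdc4 had the largest ratio in Het, 9.89, and Stfa3 in WT, 3.89, while Cstdc5 had the lowest in both, 1.79 in Het and 1.77 in WT. In Het that value rests on 1 barcode: without the top barcode of each cluster Cstdc5 had 146 CPM in the Retnlg-Il1b cluster and 27.1 CPM in the Camp-Ngp cluster of Het, and 106 and 63.9 CPM in WT. Cst3 was 1.79-fold higher in Het and 1.495-fold in WT, and Cstb 1.53-fold and 1.29-fold. Among barcodes with fewer than 3 C1q UMIs the contrast was larger, with summed stefins at 7088 CPM in the Retnlg-Il1b cluster and 417 CPM in the Camp-Ngp cluster of Het, and 3768 and 381 CPM in WT. These barcodes of the Camp-Ngp cluster were thus about level with the whole cluster in Het (402 CPM) and below it in WT (521 CPM).

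**Figure D2:**
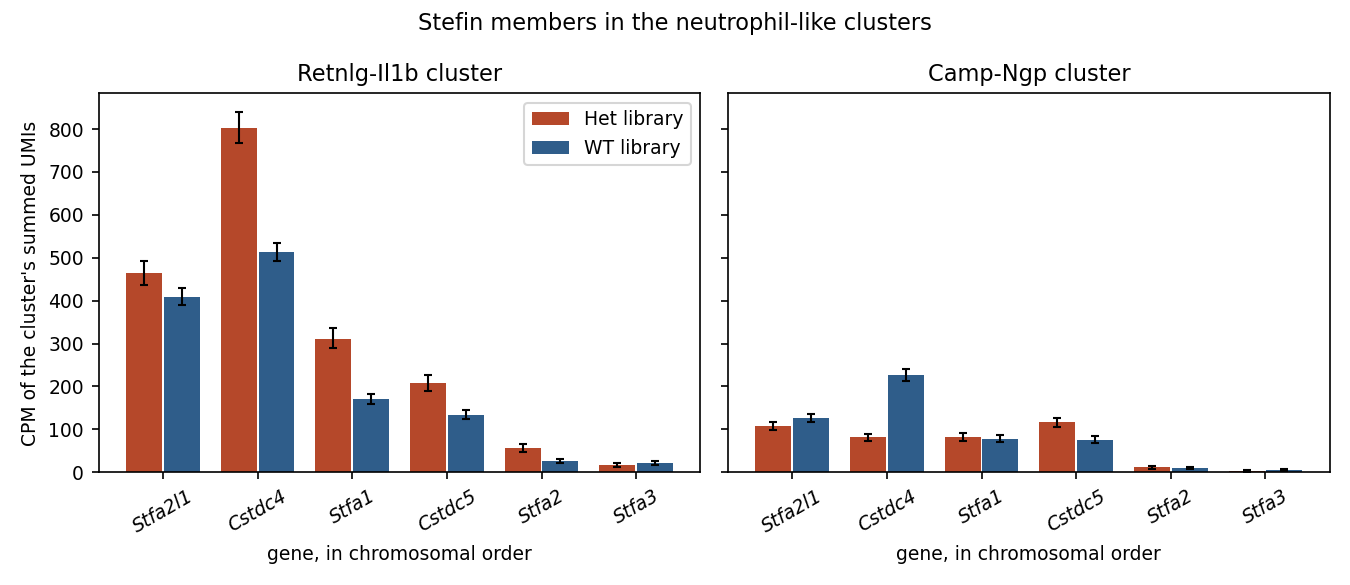
CPM of each stefin A member, in chromosomal order, in the Retnlg-Il1b cluster (left) and the Camp-Ngp cluster (right), Het bars left of WT bars, with exact Poisson 95% intervals. Cstdc4 is the highest bar of the Retnlg-Il1b cluster in both libraries (803 CPM in Het, 513 CPM in WT), and in the Camp-Ngp cluster it is 81.2 CPM in Het against 226 CPM in WT.

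A finer clustering of the neutrophil-like cells gave 7 sub-clusters, and the stefins peaked in 1 of them in both libraries. Sub-cluster 3, led by Cxcl3, Wfdc17, Ifitm1, Il1b, Hcar2 and Cxcr1, had 7232 CPM of summed stefins in its 51 Het cells and 3230 CPM in its 92 WT cells. Its cells were shallow, with a median of 4255 UMIs, and 53.1% of them had 3 or more C1q UMIs. Sub-cluster 6, with Olfm4, Ceacam10 and Ly6g among its leading genes and with 95582 CPM of the secondary granule list, had 960.3 CPM in Het and 1555 CPM in WT. Sub-cluster 1 had 1502 CPM in Het and 1019 CPM in WT. Of its leading genes, Spp1, Gpnmb, Apoe and Trem2 are genes of macrophages. Prss34 and Mcpt8, also among them, led the mast cell or basophil-like cluster. Sub-cluster 5, led by histone and mitosis genes such as Rrm2 and Top2a, had 198 CPM in Het and 517 CPM in WT. Over both libraries together, the mature list stood at 28819 CPM in sub-cluster 3, 18538 CPM in sub-cluster 6 and 616 CPM in sub-cluster 5. The sub-clusters with the most mature list had the 2 highest stefin levels of WT, but in Het sub-cluster 1 stood above sub-cluster 6. In sub-cluster 4 a single barcode held 66.6% of the Het stefin UMIs, and the level there was 597 CPM with it and 202 CPM without it.

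**Figure D3:**
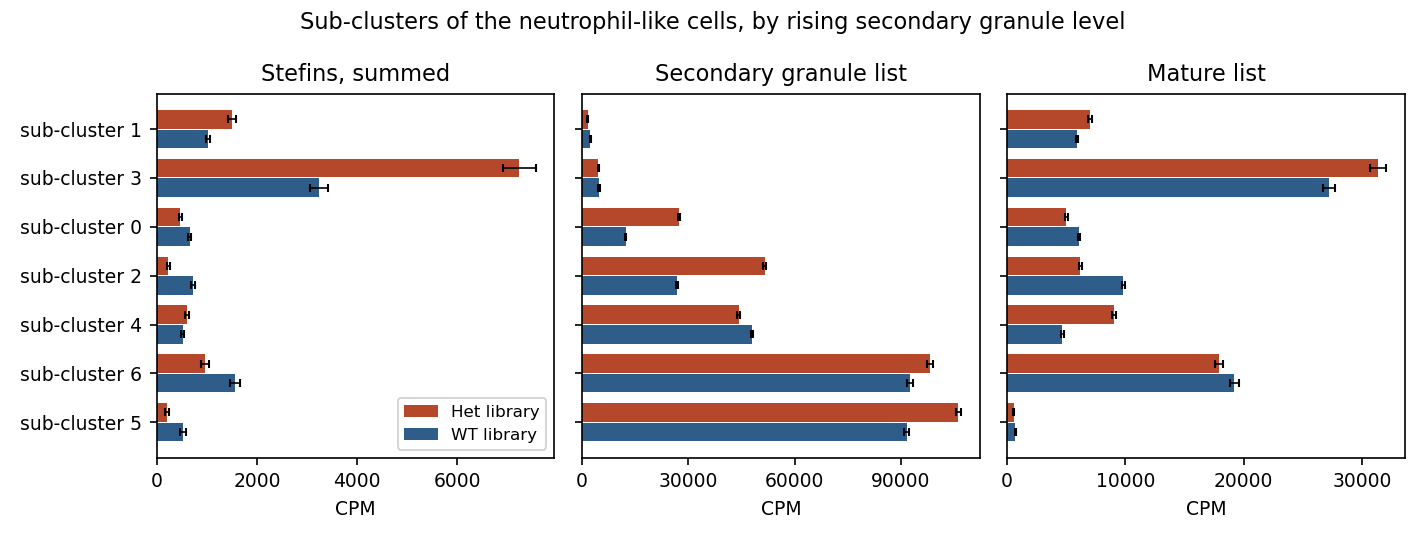
Summed stefins, secondary granule list and mature list in CPM in the 7 sub-clusters, ordered from the lowest to the highest secondary granule level of both libraries together, Het bars above WT bars, with exact Poisson 95% intervals. Sub-cluster 3 has the highest stefin level (7232 CPM in Het, 3230 CPM in WT) and the highest mature list.

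The stefins were expressed unevenly from cell to cell, and single cells were led by different members. In neutrophil-like cells the 34 Het barcodes with the most stefin UMIs held 68.7% of them, and the 48 WT barcodes with the most held 53.0%. At least 10 stefin UMIs were found in 98 Het cells (29.6%) and 178 WT cells (37.7%). Among barcodes with fewer than 3 C1q UMIs the order was turned, with 27 of 75 Het cells (36%) and 33 of 108 WT cells (30.6%). In the 98 Het and 178 WT cells the leading member held a median of 78.2% of the stefin UMIs in Het and 75.3% in WT. The most abundant member held 37.4% and 42.3% of the UMIs of the same cells pooled. The leader is picked as the highest member of each cell, which raises its share by construction. Its share if all cells had the same mix was not computed. The leading member held 90% or more in 35 of the 98 Het cells and 60 of the 178 WT cells.

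**Figure D4:**
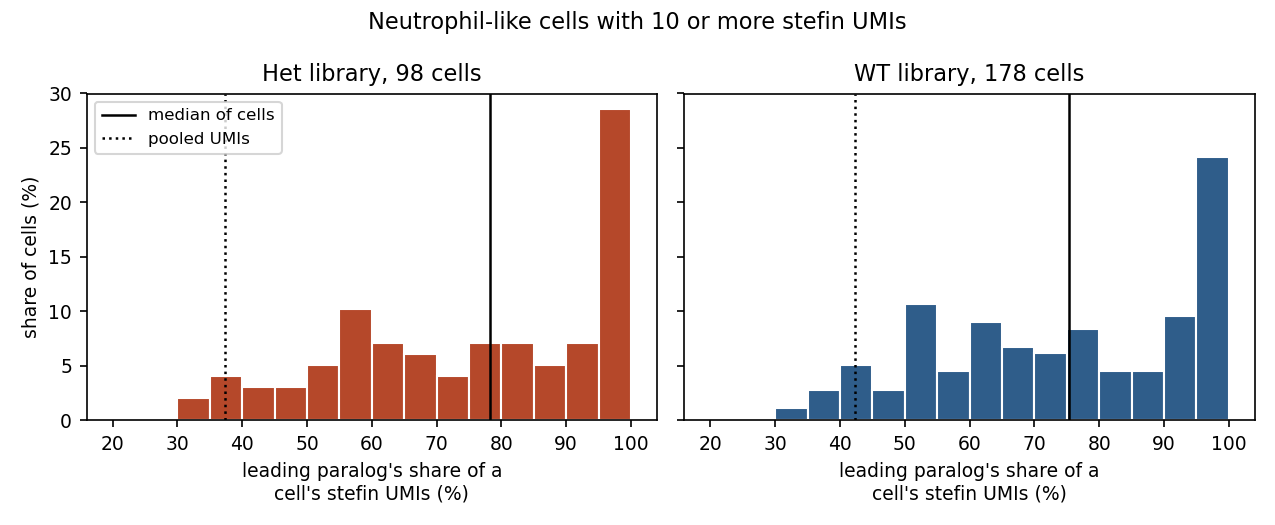
Histograms of the share of a cell's stefin UMIs held by its leading member, in percent, over neutrophil-like cells with 10 or more stefin UMIs, Het (98 cells) left and WT (178 cells) right; the y axis is the percent of cells. The solid line is the median of cells (78.2% in Het, 75.3% in WT) and the dotted line the leading member's share of the pooled UMIs (37.4% and 42.3%). The dotted line is not the share a leader picked in each cell would have if all cells had the same mix.

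The leading member differed between cells. Cstdc4 led in 42 of the 98 Het cells and 77 of the 178 WT cells, Stfa2l1 in 29 and 62, Stfa1 in 15 and 22, Cstdc5 in 10 and 14, Stfa2 in 2 and 2, and Stfa3 in 0 and 1. Counting members with at least 3 UMIs, 33 Het and 58 WT cells had 1 member, 44 and 82 had 2, 14 and 27 had 3, and none had all 6. Cells high in Stfa1 (10 or more UMIs) had no UMI of Cstdc5 in 17 of 23 Het cells and 19 of 29 WT cells, and no UMI of Cstdc4 in 8 of 23 and 12 of 29. Cells high in Stfa2l1 had no UMI of Cstdc4 in 9 of 48 Het cells and 23 of 85 WT cells. In the barcodes with fewer than 3 C1q UMIs the median share of the leading member was 82.1% in Het (27 cells) and 77.2% in WT (33 cells), so it was no lower there.

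Some single barcodes show the same, and others were mixed. The Het barcode with the most stefin UMIs had 466, of which 388 were Cstdc5, 47 Stfa2l1 and 0 Stfa1. Another Het barcode, with 4890 UMIs in all and 0 C1q UMIs, had 241, of which 164 were Cstdc4 and 71 Stfa2l1. A WT barcode with 0 C1q UMIs had 174, of which 109 were Stfa1, 49 Cstdc5 and 0 Stfa2l1. Among the mixed ones, a Het barcode with 292 had 109 Cstdc5, 76 Stfa1 and 54 Stfa2. The WT barcode with the most stefin UMIs had 219, of which 102 were Cstdc4 and 66 Stfa1. At high counts, different members led in different barcodes, and not every barcode was held mainly by 1 member.

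Stfa1 was seen in fewer cells than a mature neutrophil gene of like abundance. In the Retnlg-Il1b cluster Stfa1 averaged 4.48 UMIs per cell in Het and was seen in 12.5% of cells, and Cxcr2, a chemokine receptor of mature neutrophils, averaged 3.86 and was seen in 80% of cells. In WT Stfa1 averaged 2.64 UMIs in 16.5% of cells and Cxcr2 3.44 UMIs in 86.3%. The variance of UMIs over their mean was 86.9 in Het and 42.4 in WT for Stfa1, 57.4 and 35.3 for Cstdc4, 22.6 and 18.9 for Stfa2l1, and 3.901 and 3.24 for Cxcr2. This measure rises with the mean, and it was 287 in Het and 296 in WT for Cst3, which averaged 132 and 146 UMIs and was seen in nearly all cells. High values were not particular to the stefins. Ccl3, of the activated list, had 87.4 in Het and 39.6 in WT. It averaged 8.21 and 6.65 UMIs and was seen in 53.8% and 58.5% of cells.

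Between the libraries, the summed stefins were about level in neutrophil-like cells, at 907 CPM in Het and 883 CPM in WT, a log2 ratio of 0.04 (-0.01 to 0.09). The Camp-Ngp cluster held most Het cells of this class and the Retnlg-Il1b cluster most WT cells. All 8 members had at least 20 UMIs over both libraries there, and 2 of 8 were beyond 1.5-fold, where 10.7% of 11162 genes were. Stfa2 was higher in Het, where 4.24% of genes were, and Stfa3 lower, where 6.5% were. The median log2 ratio was 0.13 over the 6 stefins, against -0.10 over all genes tested. Stfa2, among the rarer members, had 27.0 CPM in Het and 17.8 CPM in WT (log2 ratio 0.60, 0.29 to 0.91), and Stfa3 had 7.84 and 12.6 CPM (-0.68, -1.18 to -0.20). Stfa1 had 161 CPM in Het and 123 CPM in WT (0.40), Cstdc5 148 and 104 CPM (0.52), Stfa2l1 231 and 262 CPM (-0.18), and Cstdc4 332 and 364 CPM (-0.13). Cst3 had a log2 ratio of -0.25 (-0.27 to -0.23) and Cstb of -0.16 (-0.27 to -0.04).

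The 2 clusters gave unlike ratios. In the Retnlg-Il1b cluster the summed stefins had 1859 CPM in Het and 1274 CPM in WT (log2 ratio 0.55, 0.49 to 0.60), and in the Camp-Ngp cluster 402 CPM in Het and 521 CPM in WT (-0.37, -0.46 to -0.28). With each library clustered alone the ratio of the neutrophil-like cells outside the Camp cluster was -1.01, from 156 Het and 99 WT cells in place of 160 and 284. In the Retnlg-Il1b cluster 4 members were beyond 1.5-fold higher in Het, where 5.93% of 9987 genes were, namely Stfa1 (312 CPM in Het and 171 CPM in WT), Stfa2 (55.6 and 26.4 CPM), Cstdc4 (803 and 513 CPM) and Cstdc5 (208 and 134 CPM). None was beyond 1.5-fold lower, where 7.56% of genes were. In the Camp-Ngp cluster Cstdc5 was beyond 1.5-fold higher in Het, where 4.14% of 9993 genes were, and Cstdc4 and Stfa3 were beyond 1.5-fold lower, where 7.09% were. Cstdc4 had 81.2 CPM in Het and 226 CPM in WT there (log2 ratio -1.48, -1.65 to -1.30), with 10 or more UMIs in 10 of 171 Het cells and 28 of 188 WT cells. Cst3 and Cstb were within 1.5-fold in both clusters. In microglia-like cells 4 members reached 20 UMIs, of which Stfa2l1 and Cstdc4 were beyond 1.5-fold lower in Het, where 4.17% of 9930 genes were, and 0 were higher, where 6.87% were. These values rest on 8 and 15 UMIs in Het and 26 and 52 UMIs in WT, S100a8 and S100a9 were also lower in Het microglia-like cells (2289 CPM in Het and 3135 CPM in WT, log2 ratio -0.45), and nothing is read from them.

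**Figure D5:**
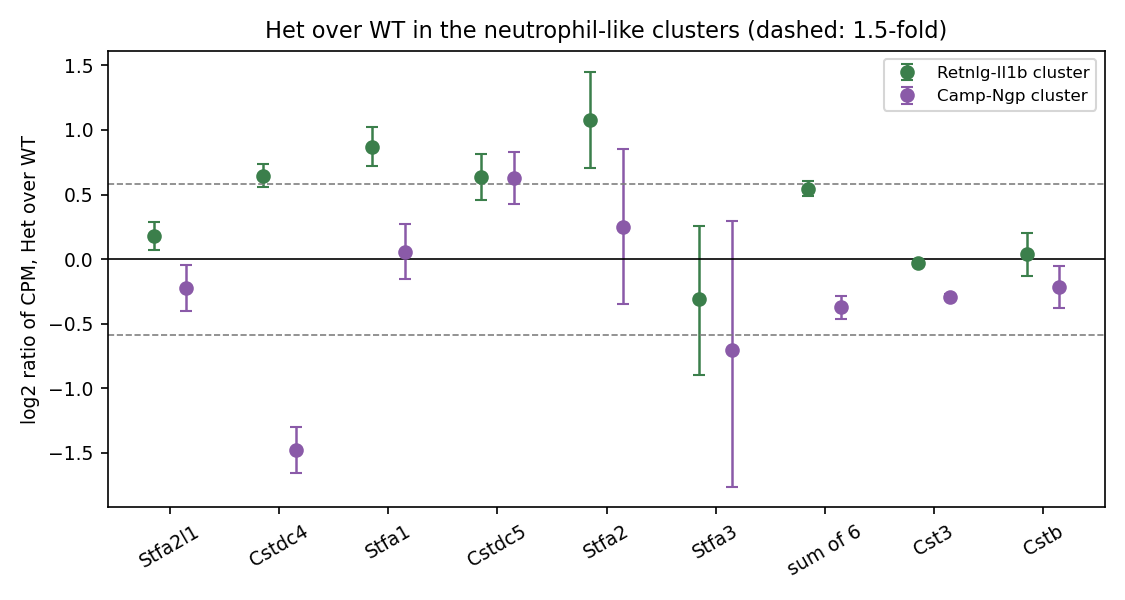
Log2 ratio of CPM, Het over WT, of each member and of the summed stefins in the Retnlg-Il1b cluster (left point of each pair) and the Camp-Ngp cluster (right point), with exact conditional binomial 95% intervals; dashed lines mark 1.5-fold. Cstdc4 lies at 0.65 in the Retnlg-Il1b cluster and -1.48 in the Camp-Ngp cluster, while Cst3 and Cstb stay within the dashed lines in both.

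Single barcodes decided some of these ratios. In the Camp-Ngp cluster 1 Het barcode held 388 of the 505 Cstdc5 UMIs, and with the top barcode of each library left out the log2 ratio of Cstdc5 turned to -1.24 (-1.56 to -0.93), against 0.63 with it, and that of the summed stefins was -0.71. In neutrophil-like cells as a whole Stfa2 went to 0.37 and Cstdc5 to 0.00 without their top barcodes, and Stfa3 to -1.18. In the Retnlg-Il1b cluster Stfa2, at 1.08, went to 0.72 and Stfa3, at -0.31, to -1.15 without their top barcodes, while Stfa1, at 0.87, went to 0.75 and Cstdc4, at 0.65, to 0.59, both still beyond 1.5-fold. Cstdc5 of that cluster, at 0.64, went to 0.46, inside 1.5-fold. Cstdc4 in the Camp-Ngp cluster stayed lower in Het, at -1.59.

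The ratios also differed with the microglial transcripts. In barcodes with fewer than 3 C1q UMIs the summed stefins had 2640 CPM in Het and 1613 CPM in WT (log2 ratio 0.71, 0.61 to 0.81), with 0.91 (0.80 to 1.02) in the Retnlg-Il1b cluster and 0.13 (-0.16 to 0.42) in the Camp-Ngp cluster. There Cstdc4 had 1051 CPM in Het and 459 CPM in WT (1.196) and Stfa1 508 and 240.2 CPM (1.08), whereas Stfa2 had 20.3 and 92.2 CPM (-2.19). The Stfa2 values rest on 14 UMIs in 5 of 75 Het cells and 81 UMIs in 9 of 108 WT cells. Of these barcodes, 1 of Het held 164 Cstdc4 UMIs and 1 of WT held 109 Stfa1 UMIs. The values are not given without top barcodes here. Cst3 had 1344 and 1950 CPM (-0.54). The lower Het level of Cstdc4 in the Camp-Ngp cluster was found in barcodes with 3 or more C1q UMIs (78.5 CPM in Het and 248 CPM in WT, -1.66) and turned in those with fewer, at 104 CPM in Het and 57.3 CPM in WT (0.86, 0.19 to 1.56), from 48 and 32 UMIs. Other lists moved between the libraries in neutrophil-like cells too: the secondary granule list had 44781 CPM in Het and 28558 CPM in WT (0.65), S100a8 and S100a9 had 187612 and 143305 CPM (0.39), and the mature list had 7963 and 8055 CPM (-0.02). The part of these shifts in the stefin ratios was not tested.

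The proteases that cystatins inhibit were measured in the same cells. Of 11 cysteine cathepsins and legumain, 9 had at least 20 UMIs in neutrophil-like cells, and 0 of these 9 were beyond 1.5-fold between the libraries there or in either cluster, where 10.7%, 13.5% and 11.2% of all genes were, so that the count is near the background share. Ctss, the most counted, had 1772 CPM in Het and 1827 CPM in WT, Ctsb 947 and 1026 CPM, Ctsl 298 and 357 CPM, and Ctsc, which activates neutrophil serine proteases, 324 and 376 CPM. Legumain (Lgmn), an asparaginyl endopeptidase that cystatin C inhibits at a separate site, had 651 CPM in Het and 612 CPM in WT. Between the clusters, 7 of 9 were beyond 1.5-fold higher in the Retnlg-Il1b cluster in each library, where 30.7% of all genes in Het and 25% in WT were, among them Ctsb (2.01-fold in Het, 1.67-fold in WT) and Lgmn (1.78-fold and 1.67-fold). The summed microglia markers moved the same way, at 13439 CPM in the Retnlg-Il1b cluster and 6060 CPM in the Camp-Ngp cluster of Het, and 11272 and 6069 CPM in WT, and their part in the cathepsin values was not tested.

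The genes whose pattern over cell clusters was most like each member group are given as a description. Over 24 points (12 clusters in each of 2 libraries, which share the clustering), the log2 level of the summed stefins had its highest Pearson r with Retnlg (0.98), Asprv1 (0.97), Mirt2 (0.97), Prok2 (0.96), S100a9 (0.95) and Il1f9 (0.95). Its r was 0.30 with Cst3 and -0.15 with Cstb. Cst3 was most like Ctsz (0.93), a lysosomal cathepsin, and Lgmn (0.91), followed by Lpcat2, Hexa, Aif1 and Rgs10 (0.89 to 0.87). Cstb was most like Dnph1 (0.89), Erp29 (0.87), Anxa4 (0.87), Smn1 (0.87), Matk (0.86) and Atp6v0c (0.84).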

How the data were processed

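Gene counts of 2 libraries of mouse cells, 1 Het (Cx3cr1-/+) and 1 WT (Cx3cr1+/+), were used as deposited by the authors, as UMI counts per gene and barcode without normalization. The submitters' processing notes name Cell Ranger 4.0 and the mm10 build, whereas the file headers name Cell Ranger 5.0.0, and which version made these counts is not settled. The lowest total of a listed barcode was 500 UMIs.

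Members, lists and motifs were chosen with earlier results of these data known. A barcode was kept when it had 500 genes or more and less than 10% of its UMIs from mitochondrial genes. Counts scaled to 10000 per cell were clustered with scanpy 1.11.5 (2000 variable genes, 30 principal components, 15 neighbours, Leiden resolution 0.5 with igraph 0.11.9, seed 0, both libraries together, no batch correction). The 8 members were left out of clustering and naming. Clusters were named from marker lists of 18 cell types, with a scoring rule set after the data were seen (at least 3 markers at 1.5-fold). Neutrophil-like cells were clustered again into 7 sub-clusters, which stay unnamed. No doublet caller was run and no doublets were removed. Barcodes with C1q UMIs, and those in the top 5% of UMIs, were left out as alternatives.

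UMIs were summed per library and class. With 1 library per genotype no test was made. Levels carry exact Poisson, shares Clopper-Pearson and ratios exact conditional binomial 95% intervals, which cover counting error only. UMIs of a member sit in few cells, so these intervals are narrower than the spread over cells. A gene was compared when its UMIs in the 2 libraries came to 20 or more, and 1.5-fold was the size called. In counts simulated with Poisson error alone, 95.8% of 11162 intervals for Het over WT in neutrophil-like cells held the true ratio. Of those of 200 changed genes, 94% did. Poisson error is what these intervals assume, so the simulation checks their calculation and not their cover of the spread over cells. Genes named are all members, the other genes of the stefin cluster, listed cystatins, cathepsins and stage genes, and the 6 genes most like each pattern. Positions come from GENCODE M21 (GRCm38), in which 32158 of 32285 gene IDs were found, and promoters from RefSeq. All 6 stefin A members and Cst3 matched a RefSeq promoter by symbol. Alternatives changed the filter, resolution, clustering, scaling (TMM from edgeR 4.0.16 in R 4.3.3, and median-of-ratios factors), thinning depth and barcodes used. Python 3.11.15, numpy 2.4.6, scipy 1.17.1, Biopython 1.88 and matplotlib 3.10.9 were used.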

Additional observations from a re-analysis of the deposited data

Results flagged for a closer look

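For 2 members and for their sum, the Het over WT ratio ran in opposite directions in the 2 neutrophil-like clusters. The difference was not tested, since each genotype has 1 library. The log2 ratio of the summed stefins was 0.55 in the Retnlg-Il1b cluster and -0.37 in the Camp-Ngp cluster. That of Cstdc4 was 0.65 and -1.48, and that of Stfa2l1 was 0.18 and -0.23. In barcodes with fewer than 3 C1q UMIs the opposite direction was not seen for the sum (0.91 and 0.13) or for Cstdc4 (1.34 and 0.86). Stfa2l1 had 0.74 and -0.05 there, with an interval of -0.60 to 0.48 around the second value. Cstdc4 in the Camp-Ngp cluster rests on 352 UMIs in 30 of 171 Het cells and 1075 UMIs in 56 of 188 WT cells.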

How the results depend on the processing

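No paired analysis was possible because the groups compared share fewer than 2 replicate numbers. Leaving out the barcode with the most UMIs of the stefins or of a single member, and all values by neutrophil-like cluster, were added after seeing the data. Under the alternatives, 65 values stayed within the counting interval of the value reported, or within 1.5 times a count, and 35 did not. The cause was not tested. The share of stefin UMIs in neutrophil-like cells was 97.98% in Het and 94.14% in WT without the cell filter, 95.6% and 90.43% without barcodes with 3 or more C1q UMIs, which lowers the class's own UMIs by construction, and 97.81% in WT without the top 5% of UMIs. With each library clustered alone it was 53.8% in WT, where 283 cells were named neutrophil-like, against 472 with the libraries together. The stefin log2 ratio in neutrophil-like cells (0.04) was -0.020 with the stricter filter, 0.092 with libraries clustered alone, -0.054 without barcodes listed in both libraries, 0.71 without C1q barcodes, -0.045 without the top stefin barcode, 0.13 with TMM and with median-of-ratios factors, and 0.15 with equal weight per cell. That of Cst3 (-0.25) was 0.11, -0.23 and -0.54 under clustering alone, shared barcodes out and C1q barcodes out, -0.22 without the top 5%, -0.16 with both scaling factors and -0.15 with equal weight. That of Cstb (-0.16) was 0.035 with clustering alone, -0.43 without C1q barcodes and -0.38 with equal weight. In the Camp-Ngp cluster the stefin ratio (-0.37) was 0.13 without C1q barcodes and -0.71 without the top barcode. In the Retnlg-Il1b cluster (0.55) it was 0.48 with the stricter filter and with equal weight, -1.01 with clustering alone, 0.47 without shared barcodes, 0.91 without C1q barcodes and 0.42 without the top 5%. Of the 8 members, 1 was beyond 1.5-fold without the cell filter and without shared barcodes, and 0 with clustering alone, against 2. TMM and median-of-ratios factors moved the median of all genes by 0.086 and 0.087. Shares of cells with a UMI of the stefins, Cst3 or Cstb moved with thinning depth in all 12 values compared.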

Other observations

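Cystatin F, the product of Cst7, targets cathepsins inside lysosomes and is known from immune cells and from microglia near plaques. Its level was 235 CPM in Het and 341 CPM in WT in mast cell or basophil-like cells (10 and 12 cells), 164 and 158 CPM in NK cell-like cells, 73.4 and 70.9 CPM in microglia-like cells and 9.80 and 22.2 CPM in neutrophil-like cells. In neutrophil-like cells these levels come from 65 UMIs in Het and 203 in WT, a log2 ratio of -1.18 (-1.60 to -0.77), and barcodes with fewer than 3 C1q UMIs held 0 and 3 of them. The other listed cystatins were nearly absent from the counts. Cst6 had 4 UMIs in Het and 3 in WT over all kept cells, and Cst8 to Cst13, Cstl1, Cstdc1 and Cstdc2 had 0 UMIs in both.

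The primary granule list, whose genes Mpo, Elane and Prtn3 are switched on in marrow promyelocytes, differed between the libraries. It had 97.7 CPM in Het and 336 CPM in WT in neutrophil-like cells, but 325 and 277 CPM over all kept cells, the other direction. In the WT Retnlg-Il1b cluster it had 436 CPM, against 243 CPM in the WT Camp-Ngp cluster, while in Het it had 58.3 and 119 CPM. Of the list's UMIs in the WT Retnlg-Il1b cluster, Prtn3 gave 759, seen in 10.6% of cells, and Elane 613, seen in 2.11% of cells. Ctsg gave 258, seen in 1.41% of cells, and Mpo 241, seen in 1.76%. Much of the level there thus rests on few cells, and it is not given without them.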
